A study of Mus musculus with 4 samples.

Results

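Gsn, Col1a2, C7, Col6a3 and Inmt are 5 genes whose reads lay almost wholly in 1 of the 4 RNA-seq libraries of this study, the library with the column name KO1. They were taken by symbol from a table of 10941 genes and were selected on their read counts in these same 4 libraries, so the counts are given as a description and carry no test. They were picked as genes of stromal cells, the matrix-producing cells of connective tissue, and that name was checked against other stromal genes of the same table.

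All RNA was from mouse group 2 innate lymphoid cells (ILC2), sorted out of adipose tissue. These lymphocytes reside in tissues, lack antigen receptors and secrete type 2 cytokines. All mice carried Il5RFP-cre (R5/+), a Cre recombinase at the Il5 locus, so the recombinase is made only where Il5 has been expressed. They were either Rptorf/f, with floxed alleles of the gene of the mTORC1 subunit Raptor, or Rptor+/+. By library name there were 2 KO-named libraries, with the columns KO1 and KO3, and 2 WT-named libraries, with the columns WT1 and WT3. Sample titles and library names contradict each other on the Rptor genotype throughout, so the genotype of KO1 cannot be told from the labels. Age, sex, pooling, the sorting gate and whether libraries of 1 group stem from different animals were not found in the labels.

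Adipose ILC2 live beside fibroblast-like stromal cells around vessels, which supply them with signals such as interleukin-33. These stromal cells lay down the fibrillar and microfibrillar collagens of the tissue and secrete proteases, laminins and complement proteins. Lymphocytes are not a usual source of collagen I or collagen VI.

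Totals were 15258779 and 18856226 counts in KO1 and KO3 and 18151495 and 17868383 counts in WT1 and WT3. Levels are CPM, the count of a gene scaled to a common column total, and 3 counts, taken as the level that a count of 0 allows, amount to 0.159 to 0.197 CPM. Intervals and floors cover counting error only. Rptor was at 0.852 and 30.7 CPM in KO1 and KO3 and at 17.4 and 80.1 CPM in WT1 and WT3, and the groups overlapped. The 14 ILC2 markers summed to 16429 and 14217 CPM in KO1 and KO3 and to 19595 and 20476 CPM in WT1 and WT3. The 9 mast cell markers summed to 9279 and 7226 CPM in KO1 and KO3 and to 9375 and 6712 CPM in WT1 and WT3, so the markers of a further cell type were abundant in every library.

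The sequences before their start sites are shown as a feature that the counts did not enter. RefSeq (GRCm38.p6) gave an upstream sequence for all 5 genes, with 7 start sites, of which 3 belong to Gsn. The 120 bases before the start were searched on both strands for TATAAA, the letters of the TATA box, for CCAAT, those of the CAAT box, and for GGGCGG, those of the GC box. The sequences below run 5′ to 3′ on the strand of the gene and end at the base before the start site in the RefSeq promoter table, which for Col6a3 lies inside the annotated gene, so that its window overlaps the gene's first bases. In them, capitals mark a match on either strand.
Inmt, chr6:55174991-55175110, minus strand: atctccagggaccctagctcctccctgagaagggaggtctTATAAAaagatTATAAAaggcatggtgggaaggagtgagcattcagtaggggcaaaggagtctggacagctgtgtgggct
C7, chr15:5063774-5063893, minus strand: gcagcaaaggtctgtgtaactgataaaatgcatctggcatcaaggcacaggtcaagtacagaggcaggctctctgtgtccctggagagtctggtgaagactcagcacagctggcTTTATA
Col1a2, chr6:4505498-4505617, plus strand: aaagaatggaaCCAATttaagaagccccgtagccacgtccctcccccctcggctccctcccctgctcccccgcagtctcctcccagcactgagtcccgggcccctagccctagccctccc
Gsn, first start, chr2:35256239-35256358, plus strand: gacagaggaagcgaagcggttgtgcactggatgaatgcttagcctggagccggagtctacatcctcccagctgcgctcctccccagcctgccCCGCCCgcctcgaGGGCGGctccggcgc
Col6a3, chr1:90843972-90844091, minus strand: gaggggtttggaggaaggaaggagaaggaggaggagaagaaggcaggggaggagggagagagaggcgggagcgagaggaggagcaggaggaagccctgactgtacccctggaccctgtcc
TATAAA matched in Inmt, 80 and 69 bases before the start, and in C7, 6 bases before it, and in 3.05% of the start sites of all listed genes. CCAAT matched in Col1a2, 109 bases before the start, against 23.6% of listed start sites. GGGCGG matched at every start of Gsn, against 45.1% of listed start sites. None of these letters stood in the Col6a3 window, and no motif of the 3 was common to the 5 genes. A match describes the letters only.

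The 5 genes lie at separate places in the genome and differ in structure (positions from RefSeq, GRCm38.p6, the assembly that mm10 names). Gsn (Entrez 227753) is on chromosome 2, 35256359 to 35307902. Col1a2 (Entrez 12843) is on chromosome 6, 4505618 to 4541543, and Inmt (Entrez 21743) on the same chromosome, 55170627 to 55174990. C7 (Entrez 109828) is on chromosome 15, 4987750 to 5063773, and Col6a3 (Entrez 12835) on chromosome 1, 90766860 to 90844001. The longest GENCODE transcript measured 10106 bases with 44 exons for Col6a3 and 5348 bases with 52 exons for Col1a2. It measured 2676 bases with 18 exons for C7, 2653 bases with 17 exons for Gsn and 1077 bases with 3 exons for Inmt. The median over all listed genes was 3619.5 bases, so the 5 lie on both sides of it. GENCODE places a further gene inside Gsn, Col1a2, Col6a3 and C7, and none of these further genes has a row in the table. For Gsn, Col1a2 and Col6a3 it lies on the strand of the host gene, so the strand would not separate its reads. For C7 it lies on the opposite strand, and no source states the strand setting of the counting. Reads of these further genes were not told apart from those of the host genes.

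Gsn encodes gelsolin, which severs and caps actin filaments inside cells and also has a secreted plasma form. It had 8021 and 1 reads in KO1 and KO3, and 42 and 8 reads in WT1 and WT3. This amounts to 525.7 and 0.053 CPM in KO1 and KO3, and to 2.31 and 0.448 CPM in WT1 and WT3. The KO-named libraries enclosed the WT-named ones, with KO1 the highest and KO3 the lowest of the 4. The level in KO1 was 227 times that in WT1, the next highest library (95% counting interval 168 to 315).

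Col1a2 encodes the alpha 2 chain of collagen I, the main fibrillar collagen of connective tissue. It had 3013 and 1 reads in KO1 and KO3, and 123 and 3 reads in WT1 and WT3, or 197 and 0.053 CPM against 6.78 and 0.168 CPM. Here too KO3 was the lowest library. With 29.1 times the level of WT1 (95% counting interval 24.3 to 35.2), KO1 stood less far above the next library than for any other of the 5 genes.

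Col6a3 encodes the alpha 3 chain of collagen VI, a microfibrillar collagen that surrounds cells such as adipocytes. It had 1577 and 2 reads in KO1 and KO3, and 1 and 6 reads in WT1 and WT3. The levels were 103 and 0.106 CPM in KO1 and KO3 and 0.0551 and 0.336 CPM in WT1 and WT3. KO1 was 308 times above WT3, the next library (95% counting interval 141 to 840), and the other 3 libraries had overlapping counting intervals.

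C7 encodes complement component 7, a secreted protein that joins the membrane attack complex of complement. It had 2563 and 2 reads in KO1 and KO3, 1 read in WT3 and none in WT1. The levels were 168 and 0.106 CPM in KO1 and KO3 and 0 and 0.056 CPM in WT1 and WT3. The ratio of KO1 to KO3 was 1584 (95% counting interval 438 to 13084), and KO1 was at least 1016-fold higher than WT1 against a floor of 3 counts in that library.

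Inmt encodes indolethylamine N-methyltransferase, a cytosolic enzyme that methylates tryptamine and related amines. It had 1269 and 3 reads in KO1 and KO3 and no read in either WT-named library. The levels were 83.2 and 0.159 CPM in KO1 and KO3, and the level in KO1 was 523 times that in KO3 (95% counting interval 178 to 2538). Against a floor of 3 counts per library, KO1 was at least 503-fold higher than WT1 and at least 495-fold higher than WT3. For Inmt and C7, but not for the other 3 genes, KO1 and KO3 were each above WT1 and WT3, an arrangement found in 2074 of all 10941 genes (19%). Outside KO1 it rested on 3 Inmt reads in KO3, which a count of 0 also allows, and on 2 C7 reads in KO3 against 1 in WT3, with overlapping counting intervals.

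**Figure D1:**
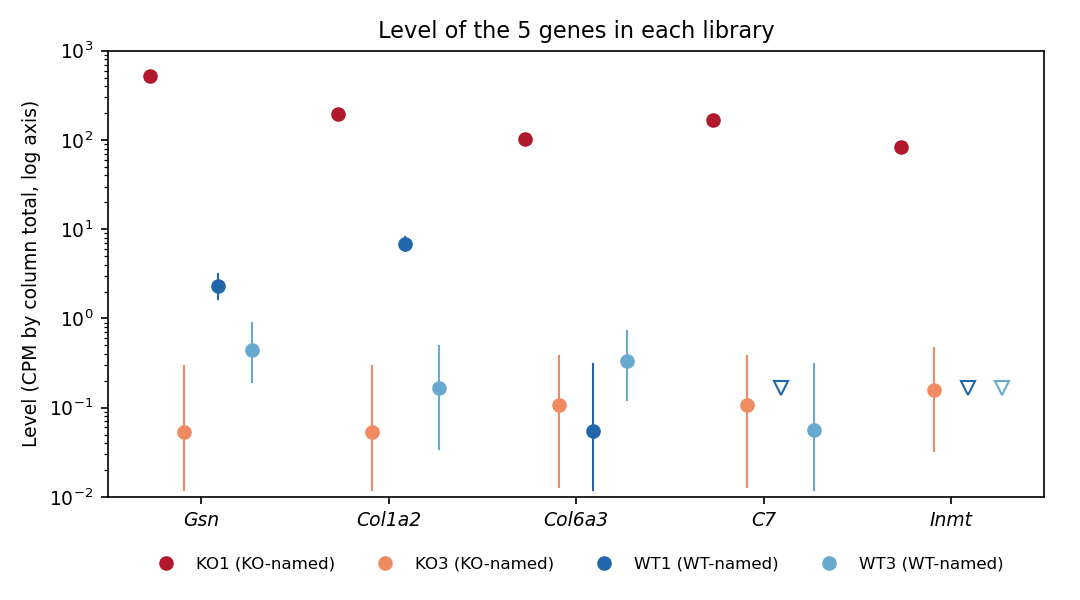
Level of each of the 5 genes in the 4 libraries, in CPM on a log axis, with KO-named libraries in red and orange and WT-named libraries in blue. Points are single libraries, lines are exact 95% Poisson intervals of the counts in KO3, WT1 and WT3 (cut off at the lower edge of the axis), and open triangles mark the level of 3 counts where a library had none. KO1 lies at 83.2 CPM or above for every gene and no other library is above 6.78 CPM.

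Together the 5 genes had 16443 and 9 reads in KO1 and KO3 and 166 and 18 reads in WT1 and WT3, and KO1 held 99% of their summed CPM. Singly the share in KO1 was 99.9% for C7, 99.8% for Inmt, 99.5% for both Col6a3 and Gsn, and 96.6% for Col1a2. The genes made up 0.108% of the counts of KO1. For each of the 5, KO3 was closer to both WT-named libraries than to KO1, and the SD of the KO-named libraries exceeded their mean. The choice of genes with reads almost wholly in KO1 fixed both. Gsn had 263 ± 372 CPM in the KO-named group and 1.38 ± 1.32 CPM in the WT-named group (SD, n = 2 each). For Inmt the KO-named libraries averaged 41.7 ± 58.7 CPM (SD, n = 2).

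Per length, in the authors' TPM values, the order of the levels in KO1 differed from the order of the counts. Gsn was at 295 TPM, rank 475 of the 10941 genes. Inmt followed at 129 TPM and rank 890, although it had the fewest reads of the 5. C7 was at 83.6 TPM (rank 1244), Col1a2 at 52.5 TPM (rank 1783) and Col6a3 at 16.7 TPM (rank 3426). The 2 collagen chains were thus the lowest of the 5 in KO1 on this scale. In WT1 the highest TPM of the 5 was 1.84, of Col1a2, and TPM of KO3 and WT3 were not used.

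The few reads outside KO1 were not spread over the 5 genes as in KO1. KO1 held 0.376 Col1a2 reads per Gsn read (95% counting interval 0.36 to 0.392), and WT1, the library with the most of these reads after it, held 2.93 (2.05 to 4.26). At the KO1 ratio to Gsn, the 42 Gsn reads of WT1 would go with 13.4 C7 reads, 8.26 Col6a3 reads and 6.64 Inmt reads. At the KO1 ratio to Col1a2, its 123 Col1a2 reads would go with 105 C7 reads, 64.4 Col6a3 reads and 51.8 Inmt reads. WT1 held 0, 1 and 0 reads of C7, Col6a3 and Inmt. In WT1 the other 3 genes thus had fewer reads beside Gsn and Col1a2 than at the proportions seen in KO1. The 5 genes were chosen for having few reads outside KO1, which kept these counts low. Nothing is therefore read from the difference, and where the reads came from was not tested.

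To place the pattern among all genes, a gene was called concentrated in a library when its level there was at least 4 CPM and at least 10 times the highest level of the other 3 libraries, or 10 times the level of 3 counts where that was higher. All 5 genes met this in KO1, as did 132 of the 10941 genes (1.21%), and since the 5 were picked for this pattern nothing is read from their count. Genes concentrated in a single library were also found in the others, 119 in KO3 (1.09%), 279 in WT1 (2.55%) and 133 in WT3 (1.22%). At the level of the 5 genes the libraries differed more. With at least the 83.2 CPM of Inmt there were 25 such genes in KO1, the 5 included, 1 in KO3, 2 in WT1 and 1 in WT3. That level was set by genes picked in KO1, so the 20 further genes of KO1 are a description and were not tested.

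**Figure D2:**
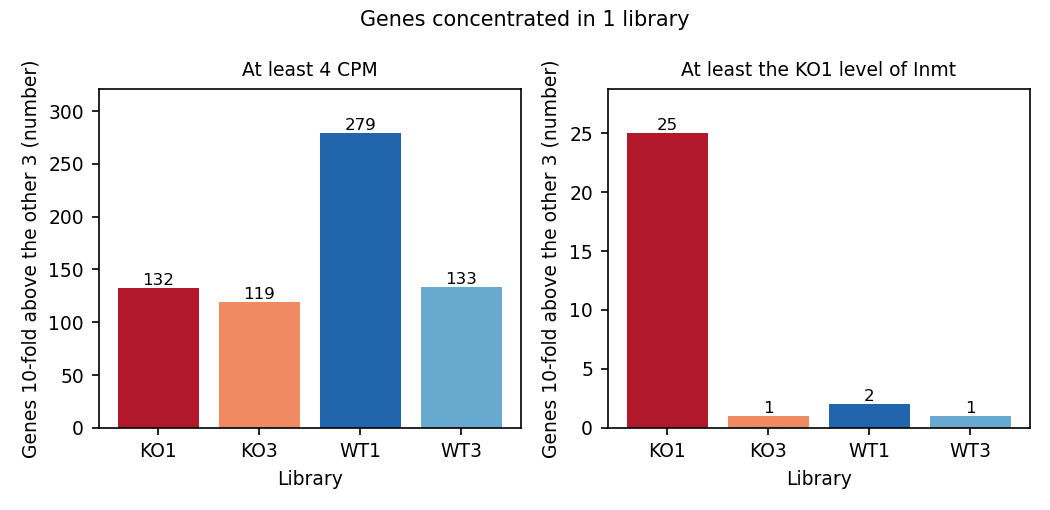
Number of genes concentrated in each library, at a level of at least 4 CPM (left panel) and at least the 83.2 CPM of Inmt in KO1 (right panel), with KO-named libraries left of WT-named ones. At the lower level WT1 has the most, with 279, and at the higher level KO1 has 25 against at most 2 elsewhere.

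Among genes with at least the 83.2 CPM of Inmt in KO1, the 6 others most like the 5, by the share of their summed CPM that lay in KO1 over the 4 libraries, were not matrix genes. Just below that level, the laminin chain Lama2 had 78.7 CPM and a share of 99.6%. Prss23, a secreted serine protease, had 1449 and 1 reads in KO1 and KO3 and 1 and 2 reads in WT1 and WT3. Foxc1, a forkhead transcription factor with roles in mesenchyme development, had 2102 and 4 reads in KO1 and KO3 and 1 and 6 reads in WT1 and WT3. Tmem126b, an assembly factor of mitochondrial complex I, had 1451 and 1 reads in KO1 and KO3 and 1 and 6 reads in WT1 and WT3. These 3 were followed by Tgtp1, an interferon-inducible GTPase with a near-identical neighbouring copy that could share its reads, with 260 CPM in KO1 and at most 0.876 CPM elsewhere. Dnmt3b, a DNA methyltransferase, had 93.5 CPM in KO1 and at most 0.336 CPM elsewhere. Cops7a, a subunit of the COP9 signalosome, had 99.4 CPM in KO1 and at most 0.386 CPM elsewhere. Tmem126b and Cops7a belong to the general machinery of cells. All 6 were chosen for having the pattern of the 5, so nothing is read from its presence in them. The share in KO1 was 99.8% for Prss23, between those of Inmt and Col6a3, and 99.2% for Cops7a.

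The other collagen chains were measured as follows. Of 31 collagen genes chosen, 5 had a row in the table, and the other 26, Col1a1 and the other collagen VI chains Col6a1 and Col6a2 among them, were not analysed here. The partner of Col1a2 in collagen I was thus not available for comparison. Col5a2, a chain of the fibril-regulating collagen V, was at 5.77 and 0.053 CPM in KO1 and KO3 and at 0.0551 and 0.056 CPM in WT1 and WT3, and met the rule for KO1. Col6a4, a further collagen VI chain, was at 0.197 and 0.106 CPM in KO1 and KO3 and at 0.11 and 0.112 CPM in WT1 and WT3. Col12a1, of the fibril-associated collagen XII, was at most 0.168 CPM in any library. Both had at most 3 reads in any library, whereas Col6a3 had 1577 reads in KO1.

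Among the 17 measured matrix glycoproteins and proteoglycans, 3 were concentrated in KO1. Lama2, the alpha 2 chain of laminin, was at 78.7 and 0.053 CPM in KO1 and KO3 and at 0.11 and 0.168 CPM in WT1 and WT3. Lamc1, the gamma 1 chain of laminin, was at 28 and 2.07 CPM in KO1 and KO3 and at 0.771 and 0.895 CPM in WT1 and WT3. Fstl1, a secreted follistatin-like glycoprotein, was at 8.45 and 0.106 CPM in KO1 and KO3 and at 0.0551 and 0 CPM in WT1 and WT3. Lamb1, the beta 1 chain of laminin, was at most 0.131 CPM in any library. Nid1, which links laminin to collagen IV, had the reverse arrangement, with 0.262 and 0.053 CPM in KO1 and KO3 and 26.3 and 0.056 CPM in WT1 and WT3. Tnxb went with KO1 below the 4 CPM of the rule, at 2.1 and 0.212 CPM in KO1 and KO3 and at 0.11 and 0.056 CPM in WT1 and WT3. KO1 was the highest library for 10 of the 17 (58.8%, against 32.2% of all listed genes), some of them at very few reads. WT1 was the highest for 6 and WT3 for 1. The 3 most abundant of the list, Thbs1, Igfbp4 and Lama2, differed in where they were high. Thbs1, the matricellular protein thrombospondin 1, was at 36.4 and 32.5 CPM in KO1 and KO3 and at 48.5 and 0.28 CPM in WT1 and WT3. Igfbp4, a binding protein of insulin-like growth factors, was at 14.1 and 2.02 CPM in KO1 and KO3 and at 21.5 and 45.2 CPM in WT1 and WT3.

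Enzymes that process collagen were not higher in KO1 as a list. None of the 14 measured was concentrated there, and their summed level was 389 and 455 CPM in KO1 and KO3 and 344 and 367 CPM in WT1 and WT3. Loxl2, a lysyl oxidase that cross-links collagen, was at 238 and 283 CPM in KO1 and KO3 and at 109 and 184 CPM in WT1 and WT3. Plod2, a collagen lysyl hydroxylase, was at 114 and 39.8 CPM in KO1 and KO3 and at 152 and 97.0 CPM in WT1 and WT3. Crtap, which takes part in collagen prolyl 3-hydroxylation, was at 3.54 and 25.2 CPM in KO1 and KO3 and at 23.9 and 33.5 CPM in WT1 and WT3. Of others chosen after their values were seen, P3h3, of the collagen prolyl 3-hydroxylase family, was at 14.9 and 1.12 CPM in KO1 and KO3 and at 0.551 and 2.52 CPM in WT1 and WT3. Adamts2, a procollagen N-proteinase, was at 2.99 and 0.106 CPM in KO1 and KO3 and at 0.76 and 1.09 CPM in WT1 and WT3. P4ha1, a collagen prolyl 4-hydroxylase subunit, was at 0.197 and 48.2 CPM in KO1 and KO3 and at 2.42 and 34.7 CPM in WT1 and WT3, so members of the list went both ways.

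Markers of fibroblasts and adipose progenitors were mostly near the floor in KO1. Of 47 such markers 14 had a row and none was concentrated in KO1. In KO1 3 of the 14 reached 4 CPM, namely Lepr, Nt5e and Medag. Lepr, the leptin receptor, was at 244 and 174 CPM in KO1 and KO3 and at 65.7 and 125 CPM in WT1 and WT3. Nt5e, the ectoenzyme CD73, was at 108 and 81.7 CPM in KO1 and KO3 and at 101 and 64.7 CPM in WT1 and WT3. Prrx1, a transcription factor of mesenchyme, was at 0.786 and 0.212 CPM in KO1 and KO3 and at 0.275 and 0.168 CPM in WT1 and WT3. Pdgfrb, a growth factor receptor of mural cells and fibroblasts, was at 0.197 CPM in KO1 and highest in WT3, at 2.18 CPM. The chemokine Cxcl12 was at 0.262 CPM in KO1 and at most 0.056 CPM elsewhere. KO1 was the highest library for 9 of the 14 (64.3%, against 32.2% of all listed genes), all but Lepr and Nt5e at under 1 CPM. Dpp4, a marker of progenitors in the adipose interstitium, was at 0.131 and 59.6 CPM in KO1 and KO3 and at 24.7 and 50 CPM in WT1 and WT3. Pdgfra, the receptor by which adipose fibroblasts are usually recognised, was not analysed here.

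**Figure D3:**
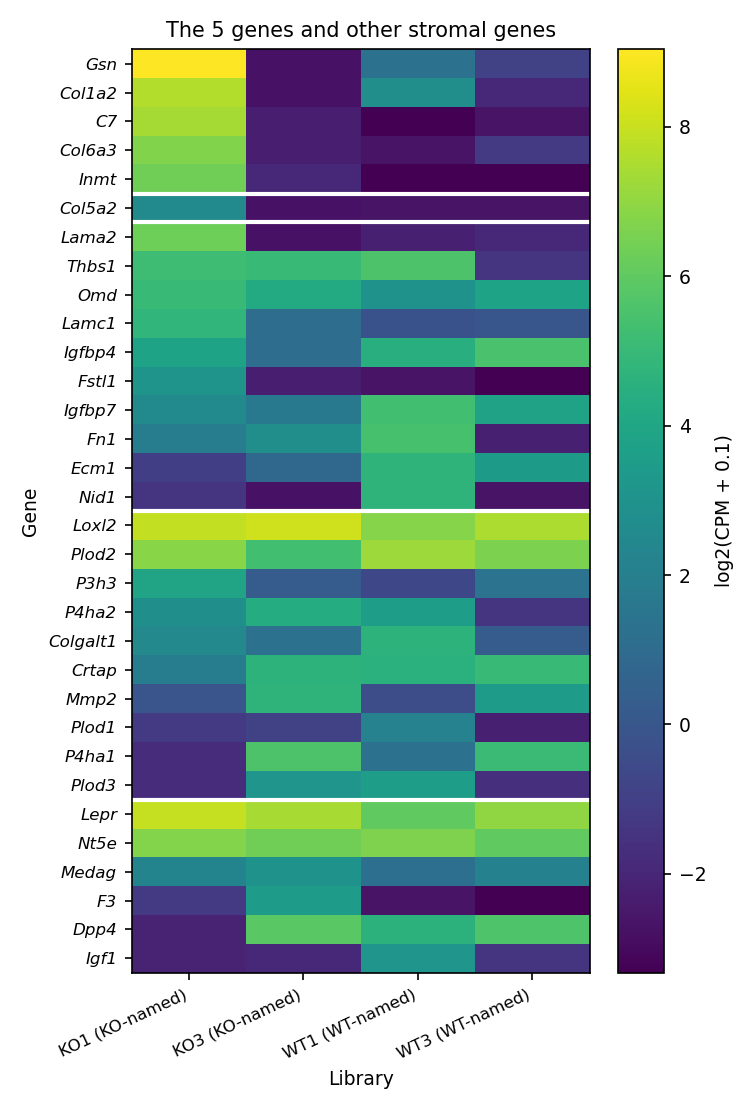
Level, as log2(CPM + 0.1), of the 5 genes (top block) and of the 27 other measured stromal genes that reached 4 CPM in at least 1 library, with KO-named libraries left of WT-named ones. From the second block down are collagens, matrix proteins, collagen processing enzymes and progenitor markers. Colour shows the level alone, and rows such as Lepr and Loxl2 are bright in every library. A KO1 level at least 10 times the rest of its row, as in the top block, recurs in Col5a2, Lama2, Lamc1 and Fstl1. It does not recur in the other rows below.

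Over the 4 stromal lists without the 5 genes, 48 of 160 genes had a row. Of these 4 were concentrated in KO1 (8.33%, against 1.21% of all listed genes) and 3 in WT1 (6.25%, against 2.55%). KO3 had 1 (2.08%, against 1.09%) and WT3 had 0 (against 1.22%). KO1 was the highest library for 24 of the 48 (50%) and for 32.2% of all listed genes. The 24 include genes of very few reads, such as Nid2, Fbn1 and Prrx2, with 1 read each in KO1 and KO3. There KO1 was highest through its smaller total alone. At least 4 CPM was reached by 16 of the 48 in KO1, 15 in KO3, 18 in WT1 and 13 in WT3. A total of 21 of the 48 stayed under 4 CPM in every library. For the log2 ratio of KO1 to the highest other library, levels under 3 counts were raised to that floor. Its median was 0.228 over the 48 genes, −0.81 over all listed genes and 8.27 over the 5 genes, whose choice fixed it. The 0.228 is the ratio of the floor of KO1 (0.197 CPM) to that of WT3 (0.168 CPM). It therefore stands for genes at the floor and shows no lean of the 48 towards KO1. Col1a2 and Col6a3 were picked for their counts and give the stromal name no support of their own. Outside the 5 genes the name rests on the 4 concentrated in KO1, Col5a2, Lama2, Lamc1 and Fstl1. The related chains Col6a4, Col12a1 and Lamb1 did not follow them. The measured fibroblast markers other than Lepr, Nt5e and Medag were below 1 CPM in KO1. The name is not used further, and the genes are called by their symbols.

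**Figure D4:**
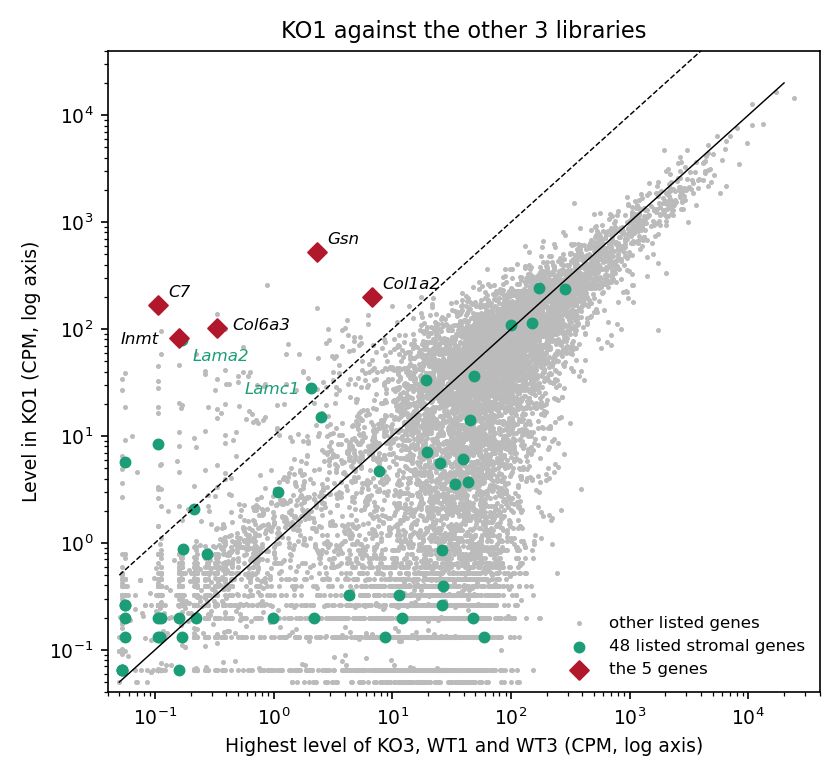
Level in KO1 against the highest level of KO3, WT1 and WT3, both in CPM on log axes, for all 10941 genes (grey), the 48 measured stromal genes (green) and the 5 genes (red diamonds). The solid line marks equal levels and the dashed line a KO1 level 10 times higher, and levels under 0.05 are drawn at 0.05. The 5 genes lie above the dashed line, as do Lama2 (nearly covered by Inmt), Lamc1, Fstl1 and Col5a2, while most green points above 4 CPM on either axis lie near or below the solid line.

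In the gelsolin superfamily of actin-binding proteins 4 of 8 genes had a row. Capg, which caps actin filaments, was at 3.47 and 27 CPM in KO1 and KO3 and at 116 and 24.1 CPM in WT1 and WT3. Svil, the membrane-linked supervillin, was at 66.3 and 12.3 CPM in KO1 and KO3 and at 30.9 and 39.2 CPM in WT1 and WT3. Flii, an actin-remodelling protein, was at 0.131 and 1.22 CPM in KO1 and KO3 and at 35.9 and 0.168 CPM in WT1 and WT3, concentrated in WT1. Of the complement list 8 of 33 genes had a row, and C7 was the 1 measured component of the terminal pathway. The highest of the list were Cr1l, a complement regulator, and Cd93, a receptor once described as binding C1q, besides C7. Cr1l was at 117 and 81.2 CPM in KO1 and KO3 and at 164 and 148 CPM in WT1 and WT3, and Cd93 at 47.8 and 26.7 CPM in KO1 and KO3 and at 61 and 20.9 CPM in WT1 and WT3. C2, of the classical and lectin pathways, was at 0.197 and 38.7 CPM in KO1 and KO3 and at 64.7 and 9.68 CPM in WT1 and WT3. C1ra, a protease of the classical pathway made by stroma and liver, was at 0.328 CPM in KO1. Of the methyltransferase family of Inmt, Nnmt and Pnmt were not analysed here.

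The listed genes next to each of the 5 on the chromosome were not concentrated in KO1. On either side of Gsn, Rab14, a trafficking GTPase, was at 62.7 and 112 CPM in KO1 and KO3 and at 251 and 223 CPM in WT1 and WT3, and Ggta1, a galactosyltransferase, was at 0.131 CPM in KO1. Beside Col1a2, Bet1 was at 9.37 CPM and Casd1 at 1.84 CPM in KO1, and both were lower there than in any other library. Beside Col6a3, Cops8 was at 33.6 CPM and Mlph at 0.779 CPM in KO1. Beside C7, Oxct1, a ketone body enzyme, was at 64 CPM in KO1 and 97.5 CPM in WT1, and Card6 was at most 0.448 CPM in any library. Beside Inmt, Gars, the glycyl transfer RNA synthetase, was at 0.721 CPM in KO1 and 49.7 CPM in WT1, and Mindy4, 28.4 kb from Inmt, was at most 0.197 CPM in any library.

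Markers of other cells that sit in adipose tissue were set beside these values, and their part in the levels of the 5 genes was not tested. In a sorted bulk sample fewer cells of a type and less RNA per cell cannot be told apart. The 4 of 20 endothelial markers with a row summed to 1.18 and 0.583 CPM in KO1 and KO3 and to 2.59 and 1.57 CPM in WT1 and WT3. The highest were Pecam1, Ptprb and Kdr, at 0.131, 0.721 and 0.262 CPM in KO1, and Kdr had no read in WT1. The 4 of 14 pericyte and smooth muscle markers summed to 2.35 and 0.701 CPM in KO1 and KO3 and to 1.41 and 1.1 CPM in WT1 and WT3, led by Abcc9, Myh11 and Cspg4, and Acta2 had no read in WT1. The 1 of 11 mesothelial markers, Gpm6a, was at 0.0655 and 32.4 CPM in KO1 and KO3 and at 0.0551 and 4.37 CPM in WT1 and WT3. The 6 of 15 adipocyte markers, with Fasn, Dgat2 and Lpl the highest, summed to 10.1 and 5.12 CPM in KO1 and KO3 and to 152 and 42.2 CPM in WT1 and WT3, and Fasn had no read in KO3. The 4 of 14 macrophage and monocyte markers summed to 1000 and 1395 CPM in KO1 and KO3 and to 1290 and 1303 CPM in WT1 and WT3, nearly all from Ccr2, which ILC2 also express. Among them Cd68 and Adgre1 were at 14.4 and 11.3 CPM in KO1, and Adgre1 and Fcgr1 had no read in WT1 and Fcgr1 none in WT3. None of these lists held a gene concentrated in KO1. Mast cell genes led by Cpa3, Cma1 and Kit, and ILC2 genes led by Rora, Id2 and Il1rl1, held none either.

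Between the KO-named and the WT-named libraries no gene of 8753 passed edgeR's quasi-likelihood test at an adjusted p of 0.05 (0% called), while 859 had an unadjusted p under 0.05. DESeq2 on the same genes called 368 (4.37% of those with an adjusted p; 1.12% higher in KO-named), DESeq2 on all listed genes 954 (9.87%; 2.59% higher), and limma-voom 201 (2.3%; 0.514% higher). The filter on low counts kept 2 of the 5 genes, Gsn and Col1a2, and left out Col6a3, C7 and Inmt because KO1 alone held enough reads. The fitted log2 fold change, KO-named minus WT-named, was 7.97 (SE 2.51) for Gsn and 5.27 (SE 2.53) for Col1a2. Without KO1 it was −4.17 (SE 2.66) for Gsn and −5.46 (SE 3.43) for Col1a2, so the sign for both rested on that library. DESeq2 called both of these on the filtered genes and 4 of the 5, all but Col1a2, on all listed genes, and limma-voom called neither. The choice of the genes used these counts, and nothing is read from those calls. Of the 48 stromal genes 21 were tested, 0 passed by edgeR, DESeq2 on the same genes or limma-voom, and 0 had an unadjusted edgeR p under 0.05. The same filter left out Col5a2, Lama2 and Fstl1, with enough reads in KO1 alone, so these tests could not call them. DESeq2 on all listed genes called 6 of the 48. In simulated data with the spread of these libraries edgeR called none either, so its 0 does not show an absence of change. The 21 had a median log2 fold change of 0.601, with 12 above 0. The median of all genes tested was 0.0495, so among these too more were above 0 than below it.

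In the authors' deposited table, whose log2 fold changes are positive where the KO columns are higher although its header reads WT against KO, the values for Gsn, Col6a3, C7 and Inmt were 7.89, 7.06, 11.7 and 24.8. The authors' deposited table gives these 4 a q-value of 0.0431, 0.038, 0.0116 and 3.18e-10, and Col1a2 a log2 fold change of 5.22 with a q-value of 0.498. The authors' deposited table has 456 of 10940 genes (4.17%) at a q-value under 0.05, of which 124 (1.13%) were higher in the KO columns, and nothing is read from the 4 members among them. The largest of these fold changes, that of Inmt, belongs to a gene with no read in the WT-named libraries, so its size is no measure of a ratio.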

How the data were processed

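Total RNA of sorted ILC2 was extracted with Trizol and sequenced from Smart mRNA-seq libraries, per the labels' protocols. Per the submitters' processing notes, reads were placed on mm10; no source used here names the aligner, counter, annotation or strand setting. The authors deposited estimated counts for each gene, 20.0% to 21.6% of them not whole, and TPM, used here for KO1 and WT1. From their DESeq2 comparison the authors deposited log2 fold changes with p-values and q-values. The other 10 columns of per-sample values were not used.

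Columns were tied to groups by library name. KO1 and WT1 match a sample, and KO3 and WT3 match a group only, since the labels number the libraries differently. Libraries of a group differed far beyond sampling noise (chi-square over degrees of freedom 445 for the KO-named and 274 for the WT-named pair), and any p-value covers the spread of these libraries alone, possibly a technical one.

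CPM values are unrounded counts over the column total. For tests, counts were rounded to whole numbers and fitted over the whole table with edgeR 4.0.16 (R 4.3.3), with TMM scaling, the filterByExpr filter and Benjamini-Hochberg adjustment at 0.05, which was tested on simulated data; there it recovered changed genes at a low spread and called none at the spread fitted to these libraries. Alternatives were RLE and library-size scaling, no filter, a replicate block, DESeq2 1.42.0, limma-voom (limma 3.58.1) and each library left out. Ratios of counts have exact conditional binomial intervals (scipy 1.17.1, 95%). Of the listed genes 99.7% matched RefSeq by Entrez number and 97.2% had a GENCODE M21 transcript length.

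The 5 genes, the gene lists and the rules were chosen with earlier results of these data known. Named genes are the 5, their listed family members, the 3 most abundant genes of each other list, the 6 genes most like them and their listed neighbours on the chromosome. Others, such as the further genes concentrated in KO1 and P4ha1, P3h3, Adamts2, Prrx1, Pdgfrb, Cxcl12, Lamb1, Nid1, Tnxb, C2 and C1ra, were named after their values were seen. The result of 1 marker list is not reported here.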

Additional observations from a re-analysis of the deposited data

How the results depend on the processing

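The count of genes called between the KO-named and WT-named libraries, 0 by edgeR, stayed 0 with RLE scaling, library size alone and no filter on low counts. It was 368 with DESeq2, 201 with limma-voom and, in an alternative chosen after seeing the data, 954 with DESeq2 on all listed genes, where 6 of the 48 stromal genes were called (Col5a2, Fstl1, Lama2, Lamc1 and F3 higher, Nid1 lower). With the replicate block it was 25, and the correlation of same-numbered deviations was −0.0014, which cannot tell whether same-numbered libraries share more than a number. Each library was also left out, with the lone library of a group assumed to vary like the other group. The count of genes called then lay between 0 and 7, and nothing is read from it, since 1 group held a single library. The fold changes of Gsn and Col1a2 turned negative without KO1 and stayed positive without KO3, WT1 or WT3. The 2 genes were chosen on these counts, so nothing is read from that either. The stromal count stayed 0 under the other alternatives, the block included. Genes concentrated in KO1, 132 at 10 times the next library, were 208 at 5 times and between 191 and 296 with 1 of the other libraries left out, the highest without WT replicate 1. Stromal genes concentrated in KO1, 4 at 4 CPM, were 2 at 10 CPM and 3 to 5 under the other alternatives. The share of the 5 genes' summed CPM in KO1, 99% as reported, was 99.3% with TMM, 99.2% with RLE, 98.8% on raw counts, 98.6% without Gsn and 99.6% without Col1a2. The causes of these shifts were not tested. Depth limits the reads outside KO1, where counts of 0 to 6 leave the ratios of Col6a3, C7 and Inmt known only within wide intervals.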
